A study of Homo sapiens with 15 samples.

Results

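RNA of 10 genes that make and take apart glutathione was followed in HEK293T cells of 5 clones. The genes were taken from a list (DPEP1, DPEP2, DPEP3, GGT1, GGT7, CHAC1, CHAC2, GCLC, GCLM and GSS), matched by GENCODE v29 symbol to the identifiers of the tables, and all 10 were found among 58735 genes. HEK293T is a human embryonic kidney line that carries the SV40 large T antigen. The groups were Non-target, a control clone, and clones in which MLPH, MAGI2, C9orf89 (CARD19) or RHBDD2 had been knocked out by a lentiviral CRISPR vector. The knockout clones are MLPH-CKO, MAGI2-CKO, C9orf89-CKO and RHBDD2-CKO below. The labels call the control WT, but by the paper it carried the same vector with a non-targeted guide RNA. The study had chosen these targets in a screen for genes of supporting cells that alter drug resistance of neighbouring leukemia cells. The RNA came from the clones grown alone, with no drug named in the labels, and from 3 wells per clone, which gave 15 libraries. Each group was 1 clone from limiting dilution, so that the knockout and other differences between clones cannot be told apart. The p-values measure the spread between wells of 1 clone. Every comparison against Non-target shares that 1 control clone. A difference common to all knockout clones therefore cannot be told apart from a trait of the control clone.

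Glutathione is a tripeptide of glutamate, cysteine and glycine and the most abundant small thiol of animal cells. Glutamate-cysteine ligase, made of the catalytic subunit GCLC and the modifier subunit GCLM, joins the first pair of amino acids, and glutathione synthetase (GSS) adds glycine. Inside the cell, CHAC1 and CHAC2 split glutathione into 5-oxoproline and cysteinylglycine. Outside the cell, gamma-glutamyltransferases such as GGT1 take off the glutamate, and membrane dipeptidases cut the remaining cysteinylglycine. DPEP1 is the renal dipeptidase, anchored to the brush border of the proximal tubule, where it also hydrolyses leukotriene D4 and the antibiotic imipenem. DPEP2 and DPEP3 are its relatives, and GGT7 is a family member whose enzymatic activity is less well known.

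DPEP1 stood at 18.9 ± 1.47 FPKM in MLPH-CKO (SD, n = 3) and at or under 1.11 FPKM in all 12 other libraries. FPKM count fragments per kilobase of exon, scaled to the size of the library, so levels are given per length. CHAC1 fell in C9orf89-CKO and RHBDD2-CKO and rose in MAGI2-CKO, GCLM fell in MAGI2-CKO and RHBDD2-CKO, and GGT1 rose in the same pair of clones. GCLC, CHAC2 and GGT7 passed the test in no clone tested against Non-target. The set was chosen by the level of DPEP1 in MLPH-CKO against Non-target. For this reason no test is given for DPEP1 in any comparison, nor for any of the 10 genes in MLPH-CKO against Non-target, where values stand as a description.

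The libraries held 15517856 to 19489918 fragments on genes, with a median of 17666063. In each group the libraries numbered 1 stood apart from the others. Over genes with counts, the chi-square per gene between wells was 14.6 to 24.8 where replicate 1 was one of the wells, and 2.40 to 6.54 where it was not. Where a call of a member depended on these libraries, values are given with and without them. All 15 libraries were fitted together with limma on log2(FPKM + 0.1) for 16175 genes, and a gene passed at a Benjamini-Hochberg adjusted p under 0.05. Of the 10 genes, 8 reached the filter of 0.5 FPKM in 3 libraries, and DPEP2 and DPEP3 did not.

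As a check of the labels, CARD19, the gene formerly named C9orf89, fell from 6.56 ± 1.04 FPKM in Non-target to 4.32 ± 0.0421 in its own knockout clone (log2 fold change -0.58, SE 0.10, limma adjusted p = 0.000977). The RHBDD2-CKO wells held less CARD19 too, with a mean of 4.79 ± 0.339 FPKM (log2 fold change -0.44, limma adjusted p = 0.00489), a call lost when only the 6 libraries compared were fitted (adjusted p = 0.0526). RHBDD2 fell from 33.5 ± 5.50 to 12.4 ± 1.18 FPKM in RHBDD2-CKO (log2 fold change -1.42, SE 0.137, limma adjusted p = 7.56e-06). RHBDD2 was also lower in MAGI2-CKO, at 13.8 ± 2.15 FPKM (log2 fold change -1.27, limma adjusted p = 1.55e-05). In C9orf89-CKO and MLPH-CKO it stood at -0.35 and -0.38 (limma adjusted p = 0.0794 and 0.0523), and with replicates 2 and 3 only it passed as lower there (-0.41 and -0.45, limma adjusted p = 0.00812 and 0.00421). MAGI2 lay under the filter, at 0.0523 to 0.123 FPKM over all libraries. MLPH, the gene of melanophilin, had 0 fragments in every library, so its RNA gives no check of the clone in which DPEP1 was high. At the protein level, the paper checked the loss of MLPH and MAGI2 by flow cytometry. It checked that of C9orf89 and RHBDD2 by western blot.

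The promoter of DPEP1 is shown because the gene moved over a wide range. RefSeq (GRCh38.p14) gives it 4 starts, and the gene level values do not say which was used. The stretch printed is the 250 bases before the start nearest the first coding exon, chr16:89630020-89630269 on the plus strand, the only one of the 4 windows with a TATA box. Capitals mark the TATA box (TATAAA, 29 bases before the start) and a match to the core of the antioxidant response element that NRF2 binds (TGACNNNGC, on the minus strand, 109 bases before the start).
DPEP1: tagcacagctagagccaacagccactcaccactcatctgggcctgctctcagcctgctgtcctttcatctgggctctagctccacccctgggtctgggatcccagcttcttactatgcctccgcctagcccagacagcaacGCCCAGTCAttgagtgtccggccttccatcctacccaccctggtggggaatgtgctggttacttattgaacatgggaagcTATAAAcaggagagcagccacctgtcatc
Searched on both strands, TGACNNNGC was found in 13.3% and TATAAA in 11.5% of the 35116 windows of the same length, 300 bases, over all genes; TATAAA was also in the window of GCLC. The only other members with the first motif were GCLM and GGT1, among 8 members with a window (13 windows in all).

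For GCLM and CHAC1, 30 bases around a match of letters are shown. Whether these matches are the elements through which the genes are induced was not tested. All 30 bases printed for CHAC1 and 11 of the 30 for GCLM lie in GENCODE v29 exons. GCLM carries a match to the antioxidant response element core (capitals, minus strand) at chr1:93909446-93909475, read on the minus strand of the genome. CHAC1, which ATF4 and CHOP induce in the unfolded protein and amino acid responses, carries a match to the CARE motif of ATF4 (TGATGNAA, capitals, minus strand) at chr15:40953251-40953280, read on the plus strand.
GCLM: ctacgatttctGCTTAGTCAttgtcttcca
CHAC1: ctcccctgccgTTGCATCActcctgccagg
The letters TGATGNAA were in 3.62% of all windows and in no other member's window. A match of letters is not a measured binding site.

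DPEP1 (ENSG00000015413, chromosome 16, 89613308 to 89638456, plus strand, 2737 exon bases) was at 0.319, 0.260 and 0.250 FPKM in wells 1, 2 and 3 of Non-target. In MLPH-CKO the wells held 17.5, 18.9 and 20.4 FPKM. In MAGI2-CKO they held 1.11, 0.810 and 1.07 FPKM. MLPH-CKO lay above every other library by a wide gap, and MAGI2-CKO lay above the remaining 9 without overlap. C9orf89-CKO had 0.288, 0.345 and 0.373 FPKM, which overlapped Non-target. RHBDD2-CKO had 0.101, 0.129 and 0.112 FPKM, below every other library. The order of means was thus MLPH-CKO, MAGI2-CKO, C9orf89-CKO, Non-target and RHBDD2-CKO, and the ranges of neighbours overlapped at 1 step, C9orf89-CKO and Non-target.

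The mean of DPEP1 in MLPH-CKO was 68.6 times that of Non-target, 56.5 times that of C9orf89-CKO, 19.0 times that of MAGI2-CKO and 166 times that of RHBDD2-CKO. The mean in MAGI2-CKO was 3.61 times that of Non-target. These ratios have low denominators. DPEP1 was counted with 37 fragments over the 3 Non-target libraries (exact 95% Poisson interval 26.1 to 51.0), 47 over C9orf89-CKO (34.5 to 62.5), 159 over MAGI2-CKO (135 to 186), 2874 over MLPH-CKO (2770 to 2981) and 16 over RHBDD2-CKO (9.15 to 26.0), and these intervals cover counting error only. On the log2(FPKM + 0.1) scale, which understates changes of low genes, the difference from Non-target was 5.66 in MLPH-CKO, 1.54 in MAGI2-CKO, 0.21 in C9orf89-CKO and -0.81 in RHBDD2-CKO (SE 0.147 each). Ranked from the largest rise, DPEP1 was number 2 of 16175 genes in MLPH-CKO and number 522 in MAGI2-CKO. In RNA of a whole well, more cells with the transcript and more transcript per cell cannot be told apart. The plot of DPEP1 by library shows the same levels.

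**Figure D1:**
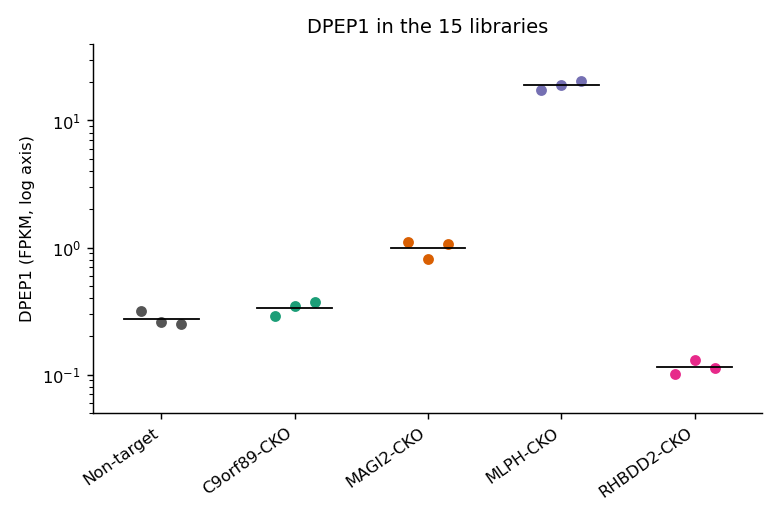
DPEP1 in FPKM (log axis) in each library, as points for the 3 wells of each clone, with the group mean as a line. The MLPH-CKO wells sit between 17.5 and 20.4 FPKM, the MAGI2-CKO wells near 1, and the RHBDD2-CKO wells lowest at 0.101 to 0.129.

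The other membrane dipeptidases were nearly silent. DPEP3 (chromosome 16, 67975663 to 67980829) had 0 fragments in all 15 libraries, and 3 fragments would have been 0.0762 to 0.0960 FPKM. DPEP2, 6.6 kb further on (67987394 to 68000586, a span that DUS2 overlaps), had 11 fragments over all libraries. No library had more than 2, and 7 libraries had none. Levels of both were under the floor of 3 fragments per library, so that no difference between clones was detectable at this depth. DPEP1 lies 21612.7 kb away from DPEP2 on the same chromosome.

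Of 28 tested genes within 500 kb of DPEP1, 5 rose and 1 fell in MLPH-CKO, where 14.5% of all genes rose and 15.5% fell. Their median log2 fold change was 0.01, with a highest value of 2.38, against 5.66 for DPEP1. The medians of the other clones were 0.13 (MAGI2-CKO), 0.12 (RHBDD2-CKO) and 0.00 (C9orf89-CKO). The nearest tested genes after DPEP1 were CHMP1A, a subunit of the ESCRT-III membrane-cutting complex, SPATA33 and the transcript AC010538.1, with log2 fold changes of 0.07, -0.17 and 0.35 in MLPH-CKO, none past the test. Before it lay RPL13, a ribosomal protein gene, and SPG7, a mitochondrial protease, at -0.08 and -0.12 in the same clone.

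The gene next before DPEP1 was CPNE7, which encodes a calcium-dependent phospholipid-binding copine (89575768 to 89597246). Its wells held 0.858, 0.636 and 0.617 FPKM in Non-target. They held 3.06, 4.70 and 4.62 FPKM in MLPH-CKO, 2.94, 3.93 and 3.19 in MAGI2-CKO and 4.41, 4.03 and 4.02 in C9orf89-CKO. RHBDD2-CKO had 0 fragments in its 3 wells, at least 12.2-fold lower than Non-target when set at the floor of 3 fragments per library. CPNE7 therefore rose in 3 clones, by log2 fold changes of 2.38, 2.11 and 2.41 (limma adjusted p = 6.75e-07, 1.41e-06 and 6.60e-07), and fell in RHBDD2-CKO (limma adjusted p = 7.80e-08). RHBDD2-CKO was the lowest group for both CPNE7 and DPEP1, whereas C9orf89-CKO had CPNE7 at a mean of 4.15 FPKM, beside 4.12 in MLPH-CKO, and DPEP1 at 0.335. The plot of neighbouring genes shows both loci described here.

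**Figure D2:**
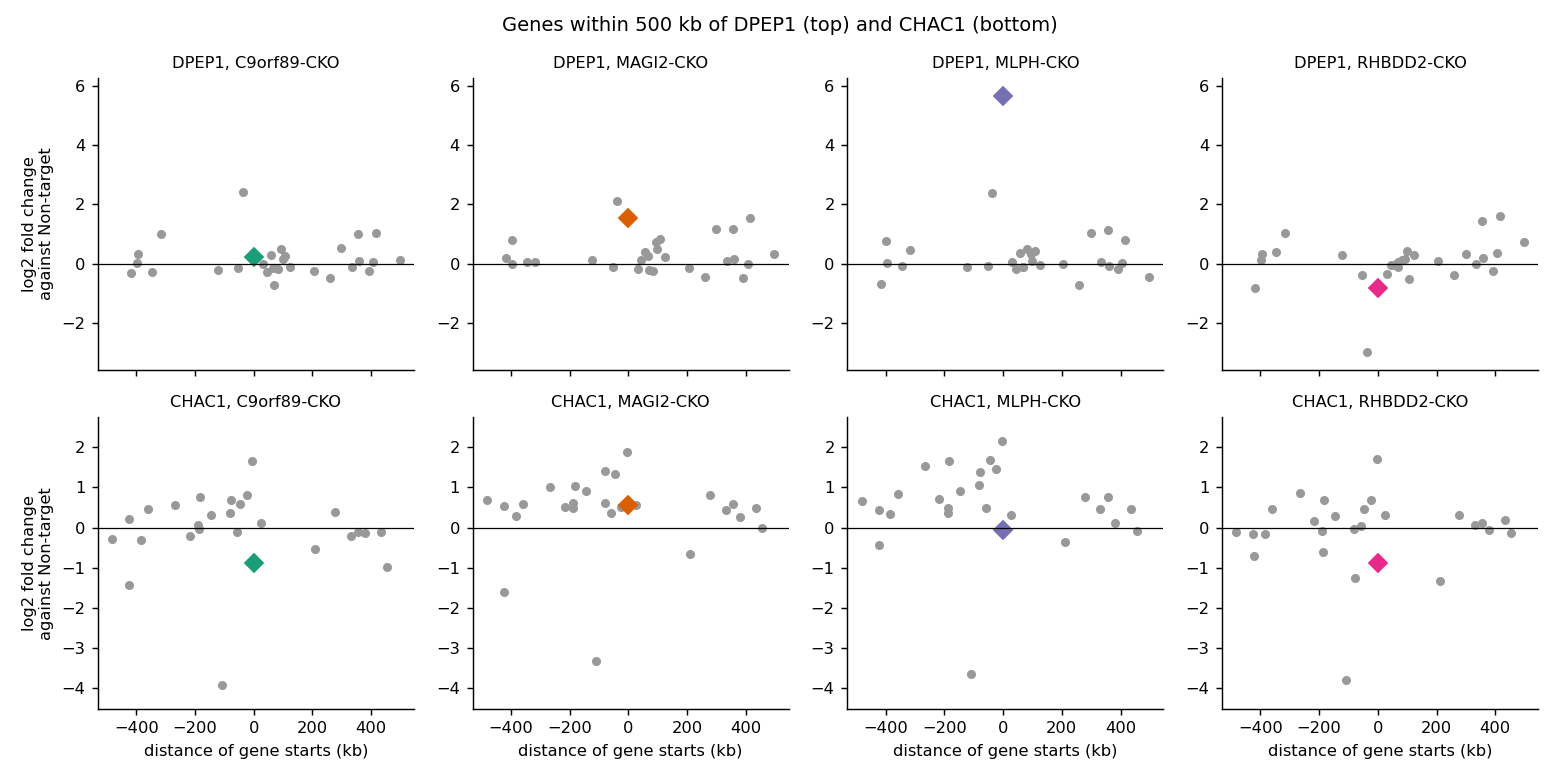
Log2 fold change against Non-target, of FPKM + 0.1, for tested genes whose position lies within 500 kb of DPEP1 (upper row) or CHAC1 (lower row), against the distance of gene starts in kb, 1 panel per clone. Grey points are neighbours and the coloured diamond is DPEP1 or CHAC1, which stands at 5.66 in the MLPH-CKO panel of DPEP1 above a highest neighbour of 2.38.

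By Pearson correlation of log2(FPKM + 0.1) over the 15 libraries, 5 of 12532 genes with a mean of at least 1 FPKM were the most like DPEP1. They were DNAJC6 (r = 0.954), DEPP1 (0.943), SLC7A8 (0.942), MAPK6 (0.940) and ANXA2 (0.937). The 15 points are 5 clones of 3 wells each, so the likeness is mostly that of the 5 clone means. DNAJC6, the neuronal auxilin of clathrin uncoating, was at 6.69 ± 0.248 FPKM in MLPH-CKO and at 4.20 to 5.02 in the other group means. DEPP1, a gene of the FOXO response, was at 3.24 ± 0.159 FPKM and at 1.29 to 1.59 elsewhere. ANXA2, annexin A2, was at 19.8 ± 1.4 FPKM and at 10.1 to 12.2 elsewhere. SLC7A8, a transporter of neutral amino acids, was at 4.78 ± 0.333 FPKM against 2.86 to 3.51, and MAPK6 at 15 ± 0.399 against 10.1 to 12.2. That all 5 were highest in MLPH-CKO follows from how they were chosen.

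GGT1 (chromosome 22, 24583750 to 24629005) encodes the gamma-glutamyltransferase that opens extracellular glutathione. Its wells held 0.717, 0.626 and 0.771 FPKM in Non-target. They held 1.39, 1.56 and 1.54 FPKM in MAGI2-CKO and 1.2, 1.53 and 1.77 in RHBDD2-CKO, all above Non-target. GGT1 rose in MAGI2-CKO (log2 fold change 0.99, SE 0.206, limma adjusted p = 0.00225) and in RHBDD2-CKO (0.98, SE 0.206, limma adjusted p = 0.00278). C9orf89-CKO had 1.34, 0.877 and 0.880 FPKM, also above Non-target in every well, and did not pass (0.47, 95% interval 0.02 to 0.92, limma adjusted p = 0.114). In MLPH-CKO the wells held 0.963, 1.56 and 1.59 FPKM, with a log2 fold change of 0.84 and the first well apart. GGT1 has near-identical family copies on chromosome 22 and shares bases with SNRPD3 and LRRC75B, and the strand setting of the counting is not given in the sources used here, so its level is uncertain. Beside GGT1 and GGT7, the 6 other genes listed for the family all lay under the filter.

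GGT7 (chromosome 20, 34844720 to 34872860) was the more abundant transcript per length, at 14.4 to 21.6 FPKM over the libraries. Its wells overlapped with Non-target in every clone, and its means ran from 16.5 ± 2.27 FPKM in RHBDD2-CKO to 20.4 ± 1.47 in MAGI2-CKO. The 95% interval of its log2 fold change was -0.34 to 0.13 in RHBDD2-CKO, -0.03 to 0.43 in MAGI2-CKO and -0.28 to 0.19 in C9orf89-CKO. Between clones, GGT7 was lower in RHBDD2-CKO than in MAGI2-CKO by 0.30 (limma adjusted p = 0.0367). This call was lost without MAGI2-CKO well 2 or 3 or RHBDD2-CKO well 1 or 3 (up to 0.149), and with replicates 2 and 3 only (0.0560). It was also lost with no filter on low values, only the 6 libraries compared or voom weights on recovered fragments (up to 0.081 over the settings). With replicates 2 and 3 only, GGT7 was higher in MAGI2-CKO than in C9orf89-CKO (limma adjusted p = 0.0236). GGT7 lies 55.6 kb from GSS and overlaps the end of ACSS2.

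CHAC1 (chromosome 15, 40952962 to 40956519) had the second widest range after DPEP1 among the expressed members, 3.60 times from the lowest to the highest library. Its wells held 10.4, 12.7 and 10.3 FPKM in Non-target. They held 5.53, 6.64 and 5.80 FPKM in C9orf89-CKO and 5.32, 6.97 and 5.76 in RHBDD2-CKO. They held 14.2, 16.4 and 19.2 FPKM in MAGI2-CKO. The low pair of clones lay below every Non-target well, and MAGI2-CKO lay above every one. CHAC1 fell in C9orf89-CKO and in RHBDD2-CKO (log2 fold change -0.88 in each, SE 0.131, limma adjusted p = 0.000337 and 0.000246) and rose in MAGI2-CKO (0.57, SE 0.131, limma adjusted p = 0.00432).

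In MLPH-CKO, where DPEP1 was highest, CHAC1 was at 9.95, 11.6 and 10.4 FPKM, which overlapped Non-target (log2 fold change -0.06). Between clones, CHAC1 was higher in MLPH-CKO than in RHBDD2-CKO and C9orf89-CKO by 0.82 each (limma adjusted p = 0.000317 and 0.00115), and lower than in MAGI2-CKO by 0.63 (limma adjusted p = 0.00407). Its 26 tested neighbours within 500 kb had median log2 fold changes of 0.56 in MAGI2-CKO and 0.59 in MLPH-CKO, and of 0.01 in C9orf89-CKO and 0.05 in RHBDD2-CKO. In MAGI2-CKO 14 of these neighbours rose and 1 fell, where 17.0% of all genes rose and 19.1% fell, and CHAC1, at 0.57, lay at their median. In MLPH-CKO 16 rose and 1 fell, where 14.5% and 15.5% of all genes did, and CHAC1, at -0.06, lay below their median. In C9orf89-CKO, where 4 rose and 4 fell, and in RHBDD2-CKO, where 5 rose and 3 fell, CHAC1 lay below their median. The part of the neighbourhood in the level of CHAC1 was not tested.

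CHAC2 (chromosome 2, 53767792 to 53775196), the constitutive relative of CHAC1, passed in no comparison tested. Its means were 17.0 ± 1.5 FPKM in Non-target, 15.3 ± 0.365 in MLPH-CKO, 15.1 ± 0.626 in MAGI2-CKO and 15.8 ± 0.802 in C9orf89-CKO. In RHBDD2-CKO well 1 held 21.6 FPKM and wells 2 and 3 held 15.8 and 15.9. The 95% intervals of its log2 fold changes were -0.18 to 0.28 in RHBDD2-CKO, -0.40 to 0.06 in MAGI2-CKO and -0.33 to 0.13 in C9orf89-CKO. The gene overlaps ASB3 on the opposite strand.

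GCLC (chromosome 6, 53497341 to 53616970), the catalytic subunit, was the steadiest member. All 15 libraries lay between 4.59 and 5.68 FPKM, a range of 1.24 times, and the groups had means of 5.29, 5.12, 5.03, 5.63 and 5.35 in Non-target and the clones of C9orf89, MAGI2, MLPH and RHBDD2, in that order. It passed in no comparison tested, and the 95% intervals of its log2 fold change, -0.18 to 0.09, -0.21 to 0.07 and -0.12 to 0.16 in C9orf89-CKO, MAGI2-CKO and RHBDD2-CKO, leave room for small changes only.

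GCLM (chromosome 1, 93885205 to 93909456), the modifier subunit, held 12.4, 12.9 and 12.4 FPKM in Non-target. It held 9.93, 10.2 and 9.50 FPKM in MAGI2-CKO and 9.58, 10.3 and 11.4 in RHBDD2-CKO. It held 11, 11.7 and 11.6 FPKM in C9orf89-CKO and 10.7, 11.1 and 10.4 in MLPH-CKO. Every well of the 4 clones lay below every Non-target well. GCLM fell in MAGI2-CKO (log2 fold change -0.35, SE 0.0631, limma adjusted p = 0.000849) and in RHBDD2-CKO (-0.27, SE 0.0631, limma adjusted p = 0.00510). The difference was -0.14 in C9orf89-CKO (limma adjusted p = 0.130) and -0.23 in MLPH-CKO, untested. The ratio of GCLM to GCLC within a library was 2.38 ± 0.130 in Non-target, 2.23 ± 0.0756 in C9orf89-CKO, 1.91 ± 0.0869 in MLPH-CKO, 1.95 ± 0.161 in RHBDD2-CKO and 1.96 ± 0.10 in MAGI2-CKO, and in the last 3 of these no library reached the lowest Non-target ratio of 2.24. In MLPH-CKO both subunits enter it, since the GCLC wells, at 5.56 to 5.68 FPKM, lay above the highest Non-target well of 5.54, with a ratio of means of 1.07.

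GSS (chromosome 20, 34928433 to 34956027), glutathione synthetase, held 12.1, 13.8 and 12.4 FPKM in Non-target and 14.9, 14.7 and 15.4 in MAGI2-CKO, without overlap. It rose in MAGI2-CKO (log2 fold change 0.23, SE 0.0773, limma adjusted p = 0.0334), a call that was lost with an adjusted p of up to 0.105 when any MAGI2-CKO well or Non-target well 1 or 3 was left out. GSS was also higher in MAGI2-CKO than in each other clone, by 0.29 over C9orf89-CKO and MLPH-CKO and by 0.33 over RHBDD2-CKO (limma adjusted p = 0.0162, 0.0172 and 0.00394). Of these, the call over C9orf89-CKO was lost without its well 2 or 3 or MAGI2-CKO well 3 (up to 0.0592), and that over MLPH-CKO without its well 2 or 3 or MAGI2-CKO well 3 (up to 0.0757). C9orf89-CKO, MLPH-CKO and RHBDD2-CKO had means of 12.2, 12.3 and 11.9 FPKM and overlapped Non-target. With replicates 2 and 3 only, RHBDD2-CKO passed for GSS, at -0.20 (limma adjusted p = 0.0276).

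**Figure D3:**
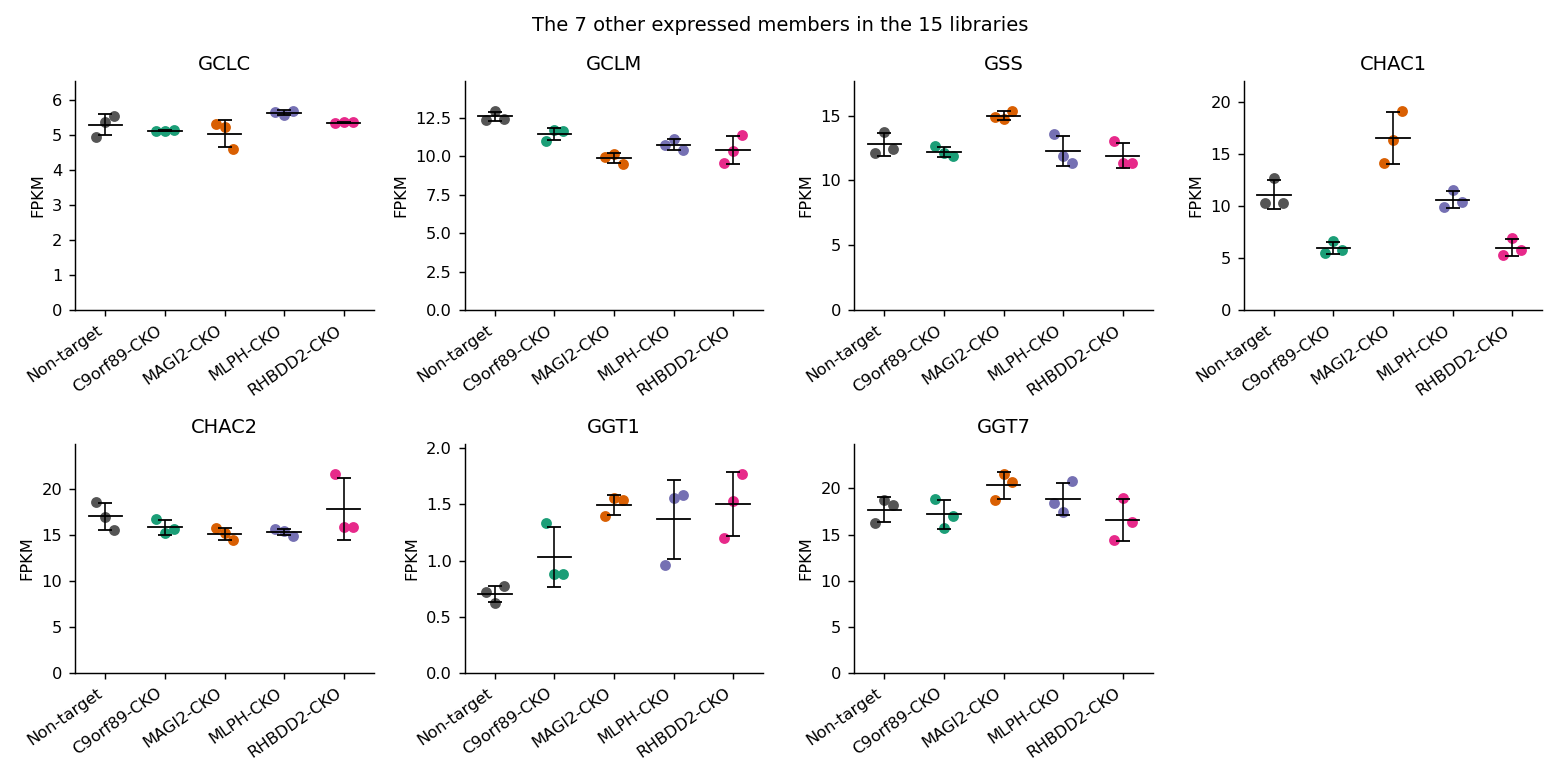
FPKM of the 7 other expressed members in each library, as points for the 3 wells of each clone, with the mean as a line and the SD as an error bar, on axes that start at 0. CHAC1 differs most, from means of 5.99 and 6.02 in C9orf89-CKO and RHBDD2-CKO to 16.6 in MAGI2-CKO, while GCLC stays between 4.59 and 5.68 in all libraries.

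Without DPEP1, 7 members were tested. In C9orf89-CKO 1 of them passed, CHAC1, which fell, where 26.0% of all 16175 genes passed, 12.9% higher and 13.1% lower. In MAGI2-CKO 4 passed, with GGT1, CHAC1 and GSS higher and GCLM lower, where 36.1% of all genes passed, 17.0% higher and 19.1% lower. In RHBDD2-CKO 3 passed, with GGT1 higher and CHAC1 and GCLM lower, where 34.1% of all genes passed, 17.4% higher and 16.7% lower. In MLPH-CKO, whose contrast chose the set, 2 lay past the same threshold as a description from which nothing is read, where 30.1% of all genes passed, 14.5% higher and 15.5% lower. With so few members, these shares do not set the members apart from all genes. The median log2 fold change of the 7 was 0.20 in MAGI2-CKO, -0.10 in RHBDD2-CKO and -0.06 in each of the remaining clones, beside -0.01 in MLPH-CKO and 0.00 in the other clones over all genes tested.

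Between clones, the share of all genes past the test was 22.5% for MAGI2-CKO against C9orf89-CKO, 14.2% for MLPH-CKO against C9orf89-CKO and 29.3% for RHBDD2-CKO against C9orf89-CKO. It was 21.2% for MLPH-CKO against MAGI2-CKO, 41.6% for RHBDD2-CKO against MAGI2-CKO and 37.0% for RHBDD2-CKO against MLPH-CKO. CHAC1 passed in 5 of these 6 comparisons, all but RHBDD2-CKO against C9orf89-CKO, where the difference was 0.00 (limma adjusted p = 0.996). CHAC2, GCLC and GGT1 passed in none of the 6. With replicates 2 and 3 only, GGT1 passed as higher than in C9orf89-CKO in the other 3 clones (by 0.84 in RHBDD2-CKO, 0.77 in MLPH-CKO and 0.75 in MAGI2-CKO, limma adjusted p = 0.00332, 0.00980 and 0.00653). GCLM passed in 1, lower in MAGI2-CKO than in C9orf89-CKO by 0.21 (limma adjusted p = 0.0299), a call lost without any MAGI2-CKO well or C9orf89-CKO well 2 or 3 (up to 0.108). The plot of changes sets the 7 members side by side.

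**Figure D4:**
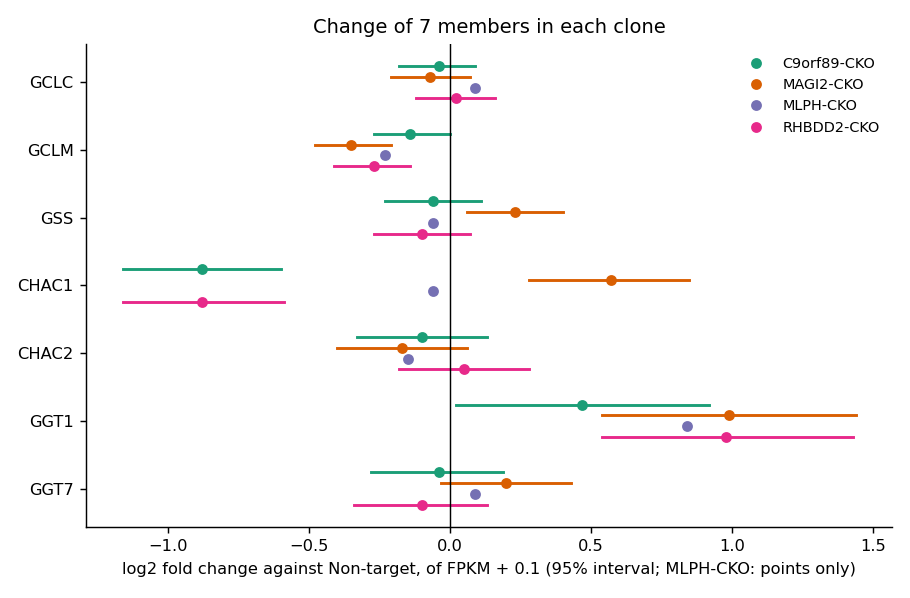
Log2 fold change against Non-target of FPKM + 0.1 for 7 members, as points with 95% intervals, 1 colour per clone, and as points alone for MLPH-CKO. CHAC1 lies at -0.88 in C9orf89-CKO and RHBDD2-CKO and at 0.57 in MAGI2-CKO, GGT1 lies above 0 in every clone, and GCLM lies below 0 in every clone.

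Glutathione turnover depends on further enzymes and transporters, and a wider list of 72 such genes was counted, of which 48 were tested. In RHBDD2-CKO 25 of them passed, 6 up and 19 down, which is 52.1% of the list beside 34.1% of all genes. In MAGI2-CKO 25 passed as well, 11 up and 14 down, again 52.1%, beside 36.1%. In MLPH-CKO 18 passed, 7 up and 11 down (37.5%, beside 30.1%), and in C9orf89-CKO 16 passed, 5 up and 11 down (33.3%, beside 26.0%). The median log2 fold change over the 48 genes was -0.19 in RHBDD2-CKO, -0.07 in MLPH-CKO and -0.05 in both other clones. The count in C9orf89-CKO was 10 without C9orf89-CKO well 1, 9 without Non-target well 2 and 10 without Non-target well 3. With single libraries left out, the count ran from 18 to 26 in RHBDD2-CKO and from 20 to 23 in MAGI2-CKO. Over the other settings it ran from 19 to 31 and from 20 to 30 in that order. The list was written by hand with earlier results of these data known.

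Of 8 genes that supply cysteine, the scarce building block, 4 passed in RHBDD2-CKO (1 up), 2 in MLPH-CKO (both down), 3 in C9orf89-CKO (all down) and 3 in MAGI2-CKO (1 up). With 8 genes, the shares of 50%, 25%, 37.5% and 37.5% stand beside 34.1%, 30.1%, 26.0% and 36.1% of all genes. SLC7A11, the light chain of the cystine-glutamate exchanger, held 8.35, 6.24 and 6.67 FPKM in Non-target and 3.68, 3.68 and 4.03 in MLPH-CKO, with no overlap. It fell in MLPH-CKO by 0.87 on the log2 scale (SE 0.102, limma adjusted p = 4.26e-05). Its heavy chain SLC3A2, which other transporters share, also fell there, from 61.7 ± 5.6 to 48.3 ± 3.60 FPKM (log2 fold change -0.35, limma adjusted p = 0.00672). Both also passed as lower in C9orf89-CKO and RHBDD2-CKO, with SLC7A11 at -0.30 and -0.33 and SLC3A2 at -0.44 and -0.26. The calls of SLC7A11 were lost without most single wells in C9orf89-CKO and without 3 of 6 in RHBDD2-CKO, with adjusted p of up to 0.165 and 0.0871 over the alternatives, and that of SLC3A2 in RHBDD2-CKO without 4 of 6 wells. SLC1A4, a carrier of small neutral amino acids, fell in MAGI2-CKO from 4.89 to 2.58 FPKM (-0.89, limma adjusted p = 0.000219). CTH, the last enzyme of transsulfuration, fell in RHBDD2-CKO from 13.9 to 11.3 FPKM (-0.30, limma adjusted p = 0.0192), a call that was lost without Non-target well 1 or RHBDD2-CKO well 3 (adjusted p of up to 0.0898).

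Downstream of GGT and DPEP, 3 of 6 genes were tested. CNDP2, a cytosolic dipeptidase that can cut cysteinylglycine, had 6.71 ± 0.560 FPKM in Non-target and fell to 5.09 ± 0.129 in MLPH-CKO, 4.74 ± 0.189 in RHBDD2-CKO and 4.46 ± 0.317 in MAGI2-CKO (log2 fold change -0.39, -0.49 and -0.58, limma adjusted p = 0.00344, 0.000647 and 0.000145). GGCT, which releases 5-oxoproline from gamma-glutamyl dipeptides, fell in MAGI2-CKO from 27.9 to 18.6 FPKM (-0.59, limma adjusted p = 0.0142). LAP3, a leucine aminopeptidase, passed as lower in C9orf89-CKO, at -0.27 (limma adjusted p = 0.0199), and stood at -0.20 in MLPH-CKO, -0.15 in RHBDD2-CKO and -0.14 in MAGI2-CKO, where it passed as lower too with replicates 2 and 3 only (limma adjusted p = 0.00663, 0.00534 and 0.0213). The call of GGCT was lost without MAGI2-CKO well 2 or 3 or Non-target well 1 (adjusted p of up to 0.0611), and that of LAP3 without C9orf89-CKO well 1 or Non-target well 2 or 3 (up to 0.0758).

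Among 13 genes of glutathione reduction and the peroxidases, 9 were tested. PGD makes NADPH in the pentose phosphate pathway. It was higher in all 4 clones than in Non-target, their shared reference (log2 fold change 0.56 to 0.73, limma adjusted p of at most 0.000107). Non-target wells held 52.0, 57.7 and 57.4 FPKM, and every library of the clones held 73.4 FPKM or more. GPX1, the cytosolic selenium-dependent glutathione peroxidase, fell in all 4, from 248 ± 26.2 FPKM to 197 ± 13.5 in MLPH-CKO, 175 ± 2.70 in RHBDD2-CKO, 154 ± 8.46 in MAGI2-CKO and 148 ± 12.6 in C9orf89-CKO, with adjusted p above the threshold after quantile normalization in MLPH-CKO and RHBDD2-CKO, and also without MLPH-CKO well 2 or Non-target well 2 in MLPH-CKO (up to 0.0643). GPX3, the secreted peroxidase, rose in MLPH-CKO, MAGI2-CKO and C9orf89-CKO, from 10.4 ± 0.377 to 13.8 ± 0.487, 13.6 ± 0.303 and 18.6 ± 0.725 FPKM. In RHBDD2-CKO it was at 9.06 ± 1.18 FPKM (log2 fold change -0.20, limma adjusted p = 0.0592), and passed as lower without RHBDD2-CKO well 2 (0.00249). GPX8, a peroxidase of the endoplasmic reticulum, fell in RHBDD2-CKO, from 17.0 ± 1.49 to 8.41 ± 0.888 FPKM (log2 fold change -1.01, limma adjusted p = 4.56e-06).

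Of 23 glutathione S-transferases, which conjugate glutathione to other compounds, 14 were tested, and 3 passed in C9orf89-CKO, 6 in MLPH-CKO, 10 in RHBDD2-CKO and 9 in MAGI2-CKO. The shares were 21.4%, 42.9%, 71.4% and 64.3% in that order, beside 26.0%, 30.1%, 34.1% and 36.1% of all genes. Of the 10 in RHBDD2-CKO, 8 were lower, and the median over the 14 genes was -0.47. GSTP1, the abundant pi class enzyme, held 249, 304 and 273 FPKM in Non-target, 133, 134 and 125 in MLPH-CKO and 143, 142 and 140 in RHBDD2-CKO. It fell in MLPH-CKO by 1.07 and in RHBDD2-CKO by 0.95 on the log2 scale (limma adjusted p = 8.44e-07 and 2.13e-06). GSTP1 fell in MAGI2-CKO too, to 191 ± 12.4 FPKM (-0.52, limma adjusted p = 0.000211). In C9orf89-CKO it passed at -0.23 (limma adjusted p = 0.0460), a call lost in 9 of 16 alternatives (up to 0.402). MGST1, a membrane-bound transferase, fell in RHBDD2-CKO from 6.74 ± 0.273 to 2.81 ± 0.271 FPKM (-1.24, limma adjusted p = 3.19e-06) and in MAGI2-CKO to 4.22 ± 0.392. GSTM4 rose in C9orf89-CKO from 1.30 to 2.91 FPKM (1.12, limma adjusted p = 0.000624) and in MAGI2-CKO to 2.46 (0.87, limma adjusted p = 0.00215). It passed as higher in MLPH-CKO too (0.58, limma adjusted p = 0.0279), a call lost without any MLPH-CKO well or Non-target well 3 (up to 0.119). In RHBDD2-CKO GSTM4 stood at -0.42 (limma adjusted p = 0.0923). GSTM2 rose in MAGI2-CKO from 1.29 to 1.96 FPKM (0.58, limma adjusted p = 0.0422). The mu class genes are close copies and their levels are uncertain, and the call of GSTM2 was lost without any MAGI2-CKO well or Non-target well 2 or 3 (adjusted p of up to 0.15).

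Of 7 glutaredoxins and glyoxalases, GLO1, which uses glutathione to clear methylglyoxal, fell in MAGI2-CKO from 189 ± 7.09 to 143 ± 2.36 FPKM and rose in RHBDD2-CKO to 255 ± 7.25 (log2 fold change -0.40 and 0.43, limma adjusted p = 0.00172 and 0.00137). In MLPH-CKO, GLRX2, the mitochondrial glutaredoxin, fell by 0.64 and GLRX3, a cytosolic iron-sulfur glutaredoxin, rose by 0.52 (limma adjusted p = 0.000158 and 0.000221). GLRX passed in RHBDD2-CKO at -0.43 (limma adjusted p = 0.0305), and lost the call without any Non-target well or without RHBDD2-CKO well 2 or 3 (adjusted p of up to 0.124). Of 9 glutathione transporters, 7 were tested. ABCC4, an efflux pump, fell in MAGI2-CKO and RHBDD2-CKO (-0.68 and -0.44), its relative ABCC5 rose in RHBDD2-CKO (0.42), SLC25A40, a mitochondrial glutathione carrier, fell in MAGI2-CKO from 4.38 to 2.83 FPKM (-0.61), and SLC25A10, the dicarboxylate carrier, fell in C9orf89-CKO from 15.4 to 10.2 (-0.59), each with a limma adjusted p of at most 0.00251. SLC25A39, the more abundant relative of SLC25A40, was named after its values were seen, and rose from 75.0 ± 8.39 FPKM to 99.5 ± 9.94 in MAGI2-CKO and 97.5 ± 6.10 in MLPH-CKO (0.41 and 0.38, limma adjusted p = 0.00948 and 0.0163), the latter call being lost without MLPH-CKO well 3 or Non-target well 1 (up to 0.0682).

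**Figure D5:**
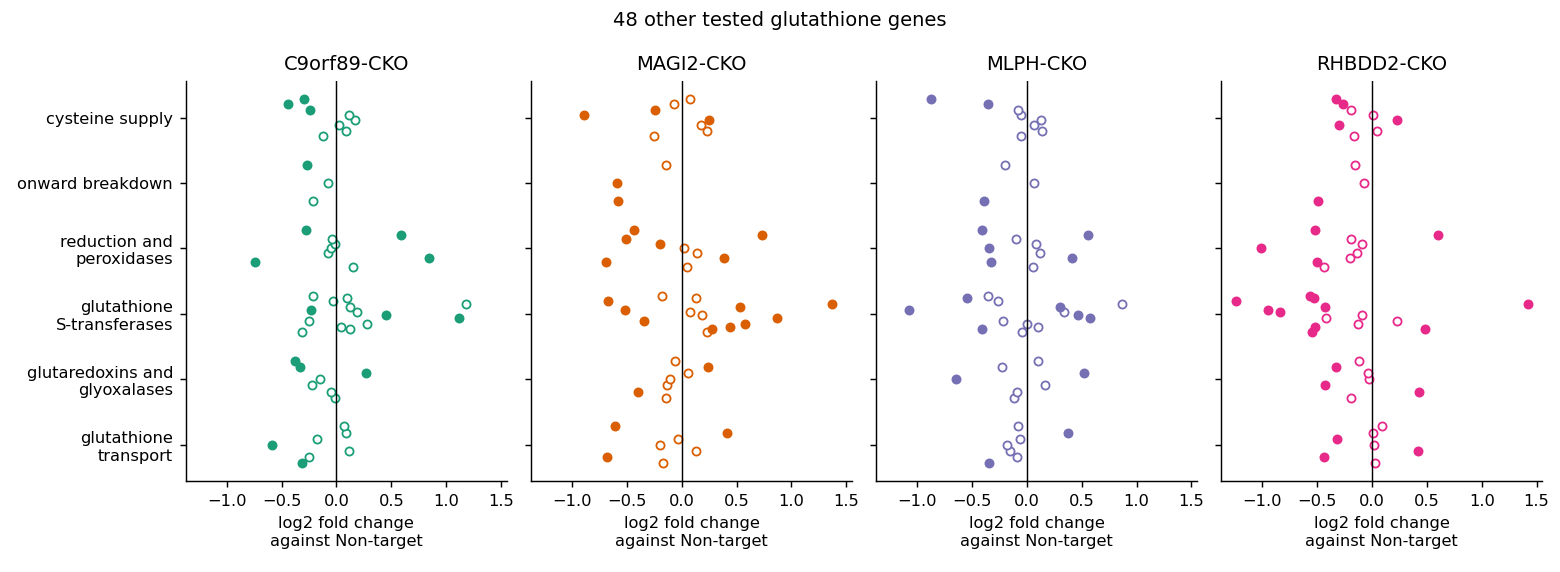
Log2 fold change against Non-target, of FPKM + 0.1, for 48 other tested glutathione genes, grouped by role, 1 panel per clone. Filled points passed the limma test at an adjusted p under 0.05 and open points did not; among the S-transferases of RHBDD2-CKO 8 filled points lie below 0 and 2 above.

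NRF2 drives GCLC and GCLM as well as HMOX1 and NQO1, and 15 of 16 genes of its system were tested. In MAGI2-CKO 8 passed (6 down), in RHBDD2-CKO 8 (4 up, 4 down), in MLPH-CKO 3 and in C9orf89-CKO 2 (all down). These are 53.3% of the tested list in MAGI2-CKO beside 36.1% of all genes, 53.3% in RHBDD2-CKO beside 34.1%, 20% in MLPH-CKO beside 30.1% and 13.3% in C9orf89-CKO beside 26.0%. HMOX1, heme oxygenase 1, held 37.0, 37.1 and 38.5 FPKM in Non-target and fell in each clone, to 8.66, 9.35 and 9.48 in C9orf89-CKO and 12.9, 12.5 and 8.51 in MLPH-CKO, with means of 21.8 ± 2.01 in MAGI2-CKO and 12.5 ± 0.984 in RHBDD2-CKO (log2 fold change -2.02, -1.74, -0.78 and -1.58 in that order, limma adjusted p of at most 0.000464). BACH1, a repressor of HMOX1, rose in RHBDD2-CKO from 4.21 ± 0.506 to 7.03 ± 0.254 FPKM (0.73, limma adjusted p = 3.61e-05). In the other clones BACH1 stood at 0.03 in MLPH-CKO and 0.20 in C9orf89-CKO (limma adjusted p = 0.827 and 0.110), and at 0.24 in MAGI2-CKO (0.0409), a call lost with replicates 2 and 3 only (0.0977). Any relation between the levels of both genes was not tested. NQO1 passed as lower in MAGI2-CKO and RHBDD2-CKO (-0.46 and -0.49), calls that were lost when most single wells were left out (adjusted p of up to 0.131 and 0.117), and TKT, transketolase, passed as lower in RHBDD2-CKO, MAGI2-CKO and C9orf89-CKO at -0.50, -0.42 and -0.56, with the call in MAGI2-CKO lost without its well 1 or Non-target well 2 or 3 (up to 0.0915). In MLPH-CKO TKT stood at -0.26 (limma adjusted p = 0.140), and passed as lower with replicates 2 and 3 only (-0.39, limma adjusted p = 0.00704).

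ATF4 drives CHAC1 together with genes of serine synthesis, and all 17 genes of that list were tested. In RHBDD2-CKO 9 passed, in MLPH-CKO 6 and in C9orf89-CKO 6, all lower, while in MAGI2-CKO 2 were higher and 3 lower. The share was 52.9% in RHBDD2-CKO, above the 34.1% of all genes, 35.3% in both MLPH-CKO and C9orf89-CKO, beside 30.1% and 26.0%, and 29.4% in MAGI2-CKO, below 36.1%. The median was -0.36 in RHBDD2-CKO, -0.24 in C9orf89-CKO, -0.16 in MLPH-CKO and -0.01 in MAGI2-CKO. DDIT4, a stress-induced inhibitor of mTORC1, held 36.3, 41.7 and 40.2 FPKM in Non-target and 50.01, 55.9 and 60.6 in MAGI2-CKO, where it rose by 0.49 as CHAC1 did (limma adjusted p = 0.000388). DDIT4 fell in C9orf89-CKO, MLPH-CKO and RHBDD2-CKO (-0.59, -0.81 and -0.84, limma adjusted p of at most 0.000167). PHGDH, the first enzyme of serine synthesis, fell in all 4 clones, from 96.7 ± 9.77 FPKM to 53.1 ± 1.06 in RHBDD2-CKO and to 64.1 to 67.2 in the other 3 means. SHMT2, which makes glycine in mitochondria, fell most in RHBDD2-CKO, from 86.7 ± 4.72 to 56.3 ± 3.62 FPKM, and STC2 in MLPH-CKO, from 23.3 ± 2.17 to 14.6 ± 1.99.

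Cysteinyl leukotrienes are another substrate of GGT and DPEP. Of a list of 5 leukotriene genes (ALOX5, ALOX5AP, LTA4H and the receptors CYSLTR1 and CYSLTR2), LTA4H alone was tested. LTA4H, which makes leukotriene B4 and not the cysteinyl form, fell in RHBDD2-CKO from 21.5 ± 0.805 to 17.2 ± 0.867 FPKM (log2 fold change -0.32, limma adjusted p = 0.00282). LTC4S, which joins glutathione to the leukotriene and was counted among the S-transferases, was named after its values were seen. It passed as higher in RHBDD2-CKO and MAGI2-CKO, from 0.190 ± 0.136 FPKM to 0.625 ± 0.146 and 0.618 ± 0.261 (1.42 and 1.37, limma adjusted p = 0.0242 and 0.0274). LTC4S reached the filter of 0.5 FPKM only through libraries of the clones, so its p-values stand as a description. Both calls were lost with replicates 2 and 3 only (limma adjusted p = 0.0774 and 0.134) and when some single wells were left out (up to 0.0920 and 0.111).

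DPEP1 is a marker of the proximal tubule, and other markers of that cell type were counted beside it. Of 10 such genes 2 were tested, SLC22A8 was at 0 in every library, and the summed level was 3.48 ± 0.154 FPKM in Non-target, 3.65 ± 0.345 in MLPH-CKO, 3.66 ± 0.117 in RHBDD2-CKO, 3.06 ± 0.393 in C9orf89-CKO and 1.71 ± 0.0810 in MAGI2-CKO. Most of it was LRP2, megalin, at 2.32 ± 0.0924 FPKM in Non-target and 2.73 ± 0.283 in MLPH-CKO (log2 fold change 0.22, limma adjusted p = 0.108), and at 0.916 ± 0.0287 in MAGI2-CKO, where it fell (-1.25, limma adjusted p = 1.06e-06). LRP2 passed as higher in RHBDD2-CKO (0.31, limma adjusted p = 0.0288), a call lost when any single well of either group was left out. MME, neprilysin, the other tested marker, was named after its values were seen. It passed as lower in C9orf89-CKO and RHBDD2-CKO (-0.62 and -0.60, limma adjusted p = 0.0239 and 0.0228), calls lost with replicates 2 and 3 only (0.0866 and 0.132), and stood at -0.18 in MLPH-CKO. FBP1, a gluconeogenic enzyme under the filter, had a mean of 0.189 FPKM in Non-target and of 0.0295 to 0.136 in the clones. The part of these markers in the level of DPEP1 was not tested.

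Of 5 markers of the kidney lineage 2 were tested. LHX1, a transcription factor of the early kidney, held 0.983, 1.10 and 0.922 FPKM in Non-target, 1.82, 2.20 and 2.01 in MLPH-CKO and 0.395, 0.484 and 0.478 in RHBDD2-CKO. It rose in MLPH-CKO (log2 fold change 0.94, limma adjusted p = 0.000258) and fell in RHBDD2-CKO (-1.0, limma adjusted p = 0.000141). LHX1 passed as higher in MAGI2-CKO too, at 1.41 ± 0.111 FPKM (0.46, limma adjusted p = 0.0200). This call was lost without MAGI2-CKO well 2 or 3 or Non-target well 3 (up to 0.0727). In C9orf89-CKO LHX1 stood at 0.37 (limma adjusted p = 0.0643). PAX2, the other tested marker, was named after its values were seen. It passed as higher in MLPH-CKO, at 1.19 ± 0.125 FPKM against 0.720 ± 0.258 in Non-target (0.70, limma adjusted p = 0.0156), a call lost with replicates 2 and 3 only and without MLPH-CKO well 3 or Non-target well 1 or 2 (up to 0.0943 over the alternatives), and stood at -0.09 in both RHBDD2-CKO and C9orf89-CKO. The summed level of the list was 3.20 FPKM in MLPH-CKO, 2.33 in MAGI2-CKO, 2.00 in C9orf89-CKO, 1.73 in Non-target and 1.11 in RHBDD2-CKO, and its part in the level of DPEP1 was not tested.

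The other cell types handled in the study were U937 leukemia cells and UE7T-9 mesenchymal cells. The 8 myelomonocytic markers summed to 0.624 ± 0.227 FPKM in Non-target, 0.647 ± 0.0891 in MLPH-CKO and 1.03 ± 0.133 in MAGI2-CKO. The sums were 0.664 ± 0.228 FPKM in C9orf89-CKO and 0.545 ± 0.0875 in RHBDD2-CKO. Among the 8, ITGB2 was the most abundant and MPO was at 0 in every library. ITGB2, the tested marker among them, was described after its values were seen, at 0.194 ± 0.0504 FPKM in Non-target. It passed as higher in MAGI2-CKO, at 0.681 ± 0.120 FPKM (log2 fold change 1.41, limma adjusted p = 0.00119), and in MLPH-CKO, at 0.409 ± 0.0282 (0.81, limma adjusted p = 0.0377), the latter lost without any MLPH-CKO well or Non-target well 1 or 2 (up to 0.117). Only the MAGI2-CKO libraries brought ITGB2 past the filter of 0.5 FPKM, so its p-values stand as a description. The other 7 markers lay under the filter. CD33, at 0.0305 FPKM in Non-target, was below every Non-target well in MLPH-CKO, MAGI2-CKO and C9orf89-CKO, CD14 was so in MAGI2-CKO (0.0454 against 0.134 FPKM), and PTPRC reached a group mean of at most 0.00397. In RHBDD2-CKO, SPI1 lay below every Non-target well (0.0464 against 0.214 FPKM) and LYZ above every one (0.0995 against 0.048 FPKM). The part of myelomonocytic cells in the level of DPEP1 was not tested. The 8 mesenchymal markers summed to 3.81 to 5.31 FPKM, mostly COL1A1, which rose from 2.43 ± 0.212 FPKM to 4.48 ± 1.06 in MLPH-CKO, 4.75 ± 0.732 in MAGI2-CKO and 4.12 ± 0.127 in C9orf89-CKO. COL3A1, the other tested marker, was named after its values were seen, and fell in all 4 clones, from 1.29 ± 0.248 FPKM to between 0.129 and 0.352 (log2 fold change -2.59 to -1.60, limma adjusted p at most 0.000571). Only the Non-target libraries brought COL3A1 past the filter of 0.5 FPKM, so these p-values stand as a description. LUM, under the filter, stood at 0.714 FPKM in Non-target and at 0.0134 to 0.281 in the clones. COL1A2, THY1, PDGFRB, DCN and POSTN lay below 0.10 FPKM in each group mean.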

How the data were processed

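RNA was sequenced from 15 wells of HEK293T clones. The authors deposited 1 table per library with FPKM values; the unit was worked out from the values, since each deposited value times the merged exon length of GENCODE v29 (GRCh38) gave whole fragments in 100% of cases (within 0.01). The submitters' processing notes name HISAT2 2.0.5, featureCounts 1.5.0-p3 and DESeq2; the genome build and strand setting are not given in the sources used here. Groups came from the labels. Genes with at least 0.5 FPKM in 3 libraries were fitted over all libraries by a linear model of log2(FPKM + 0.1) in limma 3.58.1 (R 4.3.3), with a trend, and p-values were adjusted by Benjamini-Hochberg within each contrast. The fit was tested on simulated data. Python 3.11.15 and pandas 2.3.3 did the rest. Fragments served for depth, a floor of 3 fragments and counting intervals.

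The members and lists were chosen with earlier results of these data known. Named genes were the members, the 4 targets, up to 4 genes per list (mean of at least 1 FPKM, largest change past the test with wells apart), the 3 tested genes on each side of DPEP1 and the 5 most like it. CARD19 is the current symbol of C9orf89. Other pseudocounts (0.01 and 1), filters, normalizations, fits and libraries left out were tried. Promoters are RefSeq windows from 250 bases before to 50 after a start.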

Additional observations from a re-analysis of the deposited data

How the results depend on the processing

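Of 192 counts recomputed under alternatives, 186 stayed within 1.5 times. The count of other glutathione genes past the test in C9orf89-CKO, 16 as reported, ran from 9 to 16 when single libraries were left out. The count of members past the threshold in MLPH-CKO, from which nothing is read, was 2 as reported and 1 with voom weights on the recovered fragments, and ran from 1 to 2 when single libraries were left out. No call of a member or named gene changed direction. Of 8 calls of members against Non-target, 7 held under all alternatives; the exception was GSS in MAGI2-CKO, which was also lost with no filter on low values. Of 10 calls of members between clones, 6 held; their alternatives, and those of COL3A1, MME, ITGB2, LTC4S, SLC25A39 and PAX2 (6 of 13 calls held), were added after seeing the data. Of 88 calls of other named genes, 24 were lost in at least 1 alternative. DPEP1 in MLPH-CKO ran from 3.96 (pseudocount 1) to 6.09 on the log2 scale, in MAGI2-CKO from 0.64 to 1.83, in RHBDD2-CKO from -1.2 to -0.2 and in C9orf89-CKO from 0.04 to 0.37. With replicates 2 and 3 only, also chosen after seeing the data, all 8 member calls against Non-target held.

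Equal replicate numbers did not pair the wells by the rule used (correlation of deviations 0.00103 to 0.312 over 30 pairs, median 0.0856, 12 above 0.1), but unequal numbers gave a median of -0.0887 with 2 of 60 pairs above 0.1, and 12 of 15 libraries correlated best with their own number, a hint from the data and not from the design. With a replicate block, 7169 genes passed in MAGI2-CKO, 7036 in RHBDD2-CKO, 6292 in MLPH-CKO and 5718 in C9orf89-CKO, against 5835, 5511, 4865 and 4210 without it, and no call of a member against Non-target changed; between clones no member call was lost, and CHAC2 passed in addition in RHBDD2-CKO against MAGI2-CKO (adjusted p = 0.0295) and MLPH-CKO (0.0487). Depth limits DPEP1 outside MLPH-CKO and MAGI2-CKO, and DPEP2 and DPEP3 throughout.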
